A study of Homo sapiens with 6 samples.

Results

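A set of 10 genes of transforming growth factor beta (TGF-beta) signalling was followed in MDA-MB-231, a human cell line from a triple-negative breast cancer. They were chosen by symbol, as parts of the pathway or genes known to respond to it, with earlier results of these data known. They make up 10 of 20111 genes in the deposited table. TGFB1 and TGFB2 encode ligands, TGFBR1 and TGFBR2 the receptor chains, SMAD3 the signal-carrying SMAD and SMAD7 its inhibitor. LTBP3 encodes a latent TGF-beta binding protein, and PMEPA1, BHLHE40 and ANGPTL4 are genes that TGF-beta can induce. The cells had been transfected with siSHC1 (siRNA against the adaptor gene SHC1), siNCOA3 (siRNA against the nuclear receptor coactivator gene NCOA3) or the control siRNA siControl. They were collected after 24 h or 48 h, with 1 library for each siRNA and time, 6 libraries in all. No other treatment is named in the labels, and no TGF-beta was stated to be added. The 2 times served as the replicates of an siRNA (n = 2). A p-value thus sets a difference against the residual spread of a fit with terms for siRNA and time. That spread mixes variation between libraries with any difference in an siRNA's effect between 24 h and 48 h. In the limma fit it is also drawn towards the spread of other genes at a similar level, as is each standard error (SE). The 2 residual degrees of freedom of a gene thereby became 2.62 to 6.85. The labels do not say whether the variation between libraries is technical or comes from separate cultures.

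TGF-beta is secreted in a latent complex that is tethered to the matrix by LTBP proteins and freed by integrins, thrombospondin or proteases. The active ligand brings the type II receptor TGFBR2 together with the type I receptor TGFBR1, which phosphorylates SMAD2 and SMAD3, and these enter the nucleus with SMAD4. The SMADs bind short DNA elements and induce, among others, their own inhibitors SMAD7 and PMEPA1. In breast cancer the pathway is known to restrain the growth of early lesions and to favour invasion and metastasis later, and MDA-MB-231 is a much used model of the later part. SHC1 couples receptor tyrosine kinases to RAS and is also a known substrate of TGFBR1. ANGPTL4 and BHLHE40 are also known to be induced by hypoxia.

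Levels are in FPKM, which divides the fragments of a gene by its length and by the library's mapped total, so that genes can be compared with each other. Between libraries they were scaled by a factor of 0.947 to 1.02, and a fold change is a difference of log2(scaled FPKM + 1). All 10 genes passed the filter of at least 1 scaled FPKM in at least 2 libraries, as did 11690 genes in all, and none of the 10 owed this to 1 group, since the lowest single value was 3.78 FPKM. The targeted transcripts were at 13.4% and 13.3% of siControl (SHC1 after siSHC1, 24 h and 48 h) and at 15.4% and 16.3% (NCOA3 after siNCOA3). Total FPKM per library ran from 495518 to 553073. All 8 markers of mesenchymal-like MDA-MB-231 cells were above 1 FPKM on average, with vimentin (VIM) at 887 to 1019.7 FPKM. Of the receptors that define the triple-negative class, PGR was listed at 0 in all 6 libraries and ESR1 reached 0.0922 FPKM at most, while ERBB2 transcript stood at 26.9 to 35.5 FPKM. Leukocyte, endothelial and fibroblast lists had their defining markers PTPRC, CDH5, COL3A1 and DCN at or near 0. Other genes of these lists were present, with means of 53.5 FPKM for CD68 and 4.83 FPKM for CD14 (leukocyte list, summing to 50.9 to 67.6 FPKM) and of 4.60 FPKM for COL1A1, 2.88 FPKM for PDGFRB and 1.49 FPKM for COL1A2 (fibroblast list). KDR of the endothelial list was at 0.485 to 1.25 FPKM and passed the filter. Of the luminal list the keratins KRT8, KRT18 and KRT19 were present throughout, with means of 254, 184 and 217 FPKM. EPCAM and GATA3 had means of 7.69 and 5.05 FPKM. CDH1 and FOXA1 reached 0.572 and 0.030 FPKM at most, and ESRP1 was at 0 throughout. The summed luminal list, made up mostly of these keratins, was 694 and 828 FPKM after siSHC1, 641 and 684 FPKM after siNCOA3, and 531 and 625 FPKM after siControl. KRT19 of that list rose after siSHC1 (0.64, limma adjusted p = 0.0147). The part of these luminal transcripts in the changes below was not tested.

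The sequences that TGF-beta signalling is known to read are short, and the windows of the 3 genes that changed after siSHC1 (described below) are given here so that the elements can be seen in place. The core of the SMAD-binding element is CAGAC, which reads GTCTG on the other strand. Each line gives a RefSeq window of 300 bases in GRCh38.p14, most of it before and the last 50 after a transcript start, read 5′ to 3′ on the strand of the gene. Capitals mark every match on either strand. LTBP3 and PMEPA1 have several RefSeq starts, and the window with most matches is shown. In that of BHLHE40 the last 2 matches overlap by 1 base.

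LTBP3, chr11:65558179-65558478, minus strand: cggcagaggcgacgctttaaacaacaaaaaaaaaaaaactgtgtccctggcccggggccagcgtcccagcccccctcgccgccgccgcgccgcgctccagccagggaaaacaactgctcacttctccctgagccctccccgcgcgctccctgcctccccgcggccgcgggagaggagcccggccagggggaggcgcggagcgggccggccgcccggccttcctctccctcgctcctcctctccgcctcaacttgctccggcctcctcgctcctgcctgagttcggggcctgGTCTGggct

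BHLHE40, chr3:4979187-4979486, plus strand: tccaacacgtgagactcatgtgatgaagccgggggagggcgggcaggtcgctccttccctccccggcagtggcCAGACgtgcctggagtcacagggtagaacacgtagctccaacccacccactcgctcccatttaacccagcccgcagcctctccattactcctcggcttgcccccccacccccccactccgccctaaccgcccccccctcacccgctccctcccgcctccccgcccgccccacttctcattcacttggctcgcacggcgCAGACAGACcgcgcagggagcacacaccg

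PMEPA1, chr20:57709966-57710265, minus strand: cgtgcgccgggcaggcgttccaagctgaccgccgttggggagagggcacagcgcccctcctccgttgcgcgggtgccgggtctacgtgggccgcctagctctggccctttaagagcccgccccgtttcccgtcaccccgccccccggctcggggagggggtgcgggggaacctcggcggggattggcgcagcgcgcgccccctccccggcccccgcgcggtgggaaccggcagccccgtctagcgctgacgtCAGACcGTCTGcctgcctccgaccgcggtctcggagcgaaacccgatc

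LTBP3 has 1 match, BHLHE40 3 and PMEPA1 2, and the 2 of PMEPA1 lie 1 base apart just after the start, one on each strand. Such a match is common. Of 35116 windows of the same length in RefSeq, 45.3% hold at least 1, against 16 of the 28 windows of the 10 genes. Genes such as TGFBR1 have several windows, some of them overlapping, so the same match can count in more than 1. The longer palindrome GTCTAGAC was in 0.202% of all windows and in 0 of the 28. The hypoxia-response core ACGTG, searched on both strands like the others, was in 21.4% of all windows and in 10 of the 28. In the BHLHE40 window it had 4 matches over both strands. These do not stand for as many separate sites, since the palindromic E-box CACGTG, found there in 1 place, is matched on each strand. The E-box, a sequence that BHLHE40 protein itself is known to bind, was in 7.26% of all windows and in 3 of the 28. A match is a description of letters and not a bound site.

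The 10 genes spanned a wide range of levels. SMAD3 had the highest mean over the 6 libraries, 60.8 FPKM, above 87.6% of the tested genes, and was followed by TGFBR2 at 56.1 FPKM and PMEPA1 at 40.7 FPKM. TGFB1 (32.6 FPKM), BHLHE40 (25.2 FPKM), TGFBR1 (24.2 FPKM) and TGFB2 (19.5 FPKM) came next, then ANGPTL4 (15.3 FPKM), LTBP3 (14.3 FPKM) and SMAD7 at 6.49 FPKM. Of the 9 pairs of neighbours in this order, 7 overlapped in their ranges over libraries. The exceptions were TGFBR2 above PMEPA1, and LTBP3 above SMAD7. The genes also differed in how much they varied. After scaling the highest library over the lowest was 8.51-fold for ANGPTL4 and 3.20-fold for LTBP3, more than for 99.4% and 97.0% of tested genes. It was 1.87-fold for PMEPA1, 1.86-fold for BHLHE40 and 1.60-fold for SMAD7. TGFBR2 was the steadiest of the 10, at 1.24-fold, against a median of 1.38-fold over all tested genes.

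**Figure D1:**
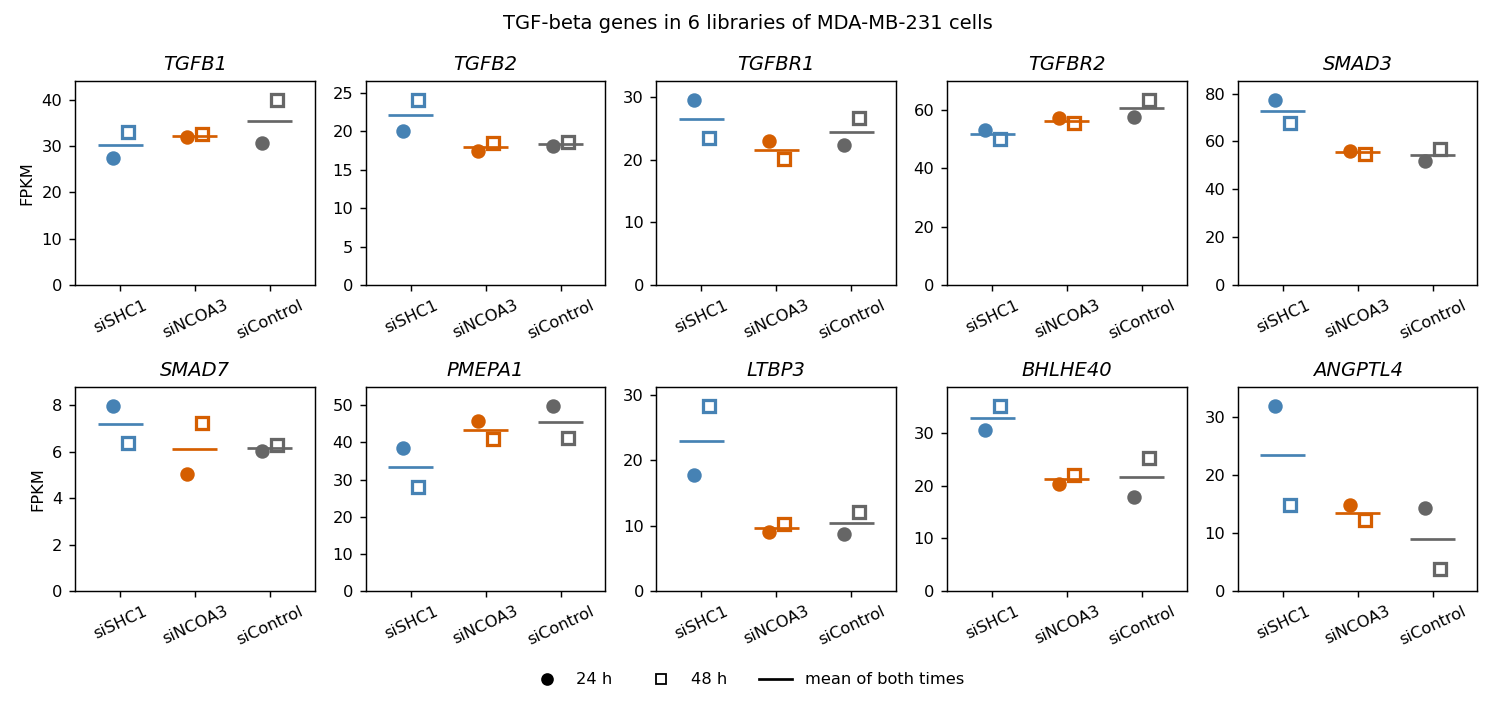
FPKM of the 10 TGF-beta genes (each panel has its own axis from 0) after siSHC1, siNCOA3 and siControl; filled circles are the 24 h library, open squares the 48 h library and lines their mean. LTBP3 and BHLHE40 lie higher and PMEPA1 lower in both siSHC1 libraries than in the other 4, and the siControl library of 48 h is the lowest of the 6 for ANGPTL4.

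After siSHC1, LTBP3 and BHLHE40 rose and PMEPA1 fell relative to siControl. In all 3 of 10 genes changed (limma, Benjamini-Hochberg adjusted p under 0.05 over all 11690 genes), 2 of them higher and 1 lower. Over all tested genes 6.42% changed, 3.11% higher and 3.32% lower. Since the 10 genes were chosen with earlier results of these data known, this comparison is no test of the set. The median fold change was 0.18 over the 10 genes and 0.0035 over all tested genes. At an unadjusted p under 0.05 there were 7 of the 10 genes and 3077 of all. Because whole cultures were sequenced, fewer cells of a kind and less RNA per cell cannot be told apart in any of these differences.

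LTBP3, a matrix protein that binds latent TGF-beta during its secretion, was at 17.7 and 28.3 FPKM at 24 h and 48 h after siSHC1. It was at 9.05 and 10.3 FPKM after siNCOA3, and at 8.76 and 12.0 FPKM after siControl. Both siSHC1 libraries stood above the other 4, with means of 23.0 ± 7.52 FPKM after siSHC1, 9.67 ± 0.875 FPKM after siNCOA3 and 10.4 ± 2.29 FPKM after siControl (SD, n = 2 each). After scaling, the siSHC1 level was 1.88-fold that of siControl at 24 h and 2.40-fold at 48 h. In the fit it was higher by 1.02 ± 0.13 on the log2 scale (SE, limma adjusted p = 0.0122). Without the siControl library of 24 h or of 48 h the adjusted p was 0.0663 or 0.0803, at values of 1.07 and 0.97.

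LTBP3 also took a larger share of its own family. Of the summed FPKM of LTBP1 to LTBP4 it made up 26.0% and 31.5% after siSHC1 at 24 h and 48 h, 15.4% and 17.1% after siNCOA3, and 16.6% and 15.2% after siControl. The siSHC1 shares did not overlap with the others. This share does not depend on the scaling between libraries. The other 3 family members did not pass the test after siSHC1, with LTBP1 at -0.28 (limma adjusted p = 0.182), LTBP2 at 0.04 and LTBP4 at 0.12.

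BHLHE40, a transcription repressor of the circadian and hypoxia response that TGF-beta also induces, was at 30.5 and 35.2 FPKM after siSHC1. It was at 20.3 and 22.1 FPKM after siNCOA3 and at 17.9 and 25.2 FPKM after siControl. The siSHC1 libraries were again above the other 4, and the siNCOA3 values lay within the range of siControl. The rise was 1.59-fold at 24 h and 1.42-fold at 48 h after scaling, and 0.57 ± 0.09 in the fit (SE, limma adjusted p = 0.0250). The adjusted p was 0.148 and 0.0676 without the siControl library of 24 h and 48 h. It was 0.0633 and 0.0922 when the 24 h and the 48 h library of siSHC1 was left out.

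PMEPA1, a membrane protein that holds SMAD2 and SMAD3 away from the receptor and is itself a strong TGF-beta target, was at 38.6 and 28.1 FPKM after siSHC1. It was at 45.7 and 40.9 FPKM after siNCOA3 and at 49.9 and 41.1 FPKM after siControl. At each time the siSHC1 library was the lowest of the 3. Its level was 72.3% of siControl at 24 h and 69.7% at 48 h, and the fitted change was -0.48 ± 0.10 (SE, limma adjusted p = 0.0405). The adjusted p was 0.194 and 0.129 without the siControl library of 24 h and 48 h, 0.198 without the siSHC1 library of 48 h, and 0.0505 without scaling.

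Of the other 7 genes, SMAD3 came nearest to the threshold. SMAD3, the SMAD that carries much of the transcriptional signal, was at 77.5 and 67.7 FPKM after siSHC1, 56.1 and 54.8 FPKM after siNCOA3, and 52.0 and 57.0 FPKM after siControl. Both siSHC1 libraries were above the other 4, with a value of 0.37 ± 0.08 (SE, limma adjusted p = 0.0520). With the filter at 5 FPKM in place of 1 the adjusted p was 0.0436. Of 16 alternative ways of processing (described below) this was the only 1 in which SMAD3 passed. SMAD3 made up 67.5% and 64.4% of the summed SMAD2 and SMAD3 FPKM after siSHC1, 56.0% and 58.1% after siNCOA3, and 59.9% and 59.2% after siControl.

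ANGPTL4, a secreted inhibitor of lipoprotein lipase that TGF-beta induces in breast cancer cells, had the highest fold change of the 10 and the widest error. It was at 32.0 and 14.8 FPKM after siSHC1 at 24 h and 48 h, at 14.8 and 12.2 FPKM after siNCOA3, and at 14.3 and 3.78 FPKM after siControl. At each time siSHC1 was the highest of the 3, but the siSHC1 library of 48 h was close to the siControl library of 24 h, and after scaling the ranges over both times overlapped. The siSHC1 level was 2.09-fold that of siControl at 24 h and 4.0-fold at 48 h. In the fit the value was 1.38 ± 0.36 (SE, limma adjusted p = 0.0965). ANGPTL4 passed in only 3 of the 16 alternatives, among them those without the siNCOA3 library of 24 h or of 48 h. The value itself was 1.95 without the siControl library of 24 h and 0.81 without that of 48 h.

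TGFBR2, the ligand-binding receptor, was at 53.1 and 50.1 FPKM after siSHC1, 57.2 and 55.5 FPKM after siNCOA3, and 57.4 and 63.5 FPKM after siControl. Its siSHC1 libraries were the lowest, at a value of -0.26 ± 0.08 (SE, limma adjusted p = 0.0966). TGFBR1, the kinase that phosphorylates the SMADs, was at 29.6 and 23.5 FPKM after siSHC1, 22.9 and 20.2 FPKM after siNCOA3, and 22.4 and 26.6 FPKM after siControl, with overlapping ranges (0.08, limma adjusted p = 0.728). TGFBR2 made up 64.2% and 68.1% of the summed receptor FPKM after siSHC1, 71.4% and 73.4% after siNCOA3, and 72.0% and 70.5% after siControl. These siSHC1 shares were below the other 4.

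Among the ligands, TGFB1 was at 27.4 and 33.1 FPKM after siSHC1, 32.0 and 32.5 FPKM after siNCOA3, and 30.7 and 40.0 FPKM after siControl. TGFB2 was at 20.0 and 24.1 FPKM after siSHC1, 17.5 and 18.5 FPKM after siNCOA3, and 18.1 and 18.6 FPKM after siControl. TGFB1 overlapped between siSHC1 and siControl (-0.25, limma adjusted p = 0.159), and TGFB2 was higher in both siSHC1 libraries (0.21, limma adjusted p = 0.256), but neither passed. TGFB2 made up 41.5% and 41.7% of the summed FPKM of TGFB1 to TGFB3 after siSHC1, 34.6% and 35.7% after siNCOA3, and 36.7% and 31.3% after siControl. TGFB3 was below the filter, at 0.583 to 1.02 FPKM.

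SMAD7, the inhibitory SMAD that blocks the receptor, had the lowest level of the 10. It was at 7.98 and 6.36 FPKM after siSHC1, 5.03 and 7.24 FPKM after siNCOA3, and 6.03 and 6.28 FPKM after siControl. Its siSHC1 values lay just above those of siControl before scaling, at 0.15 ± 0.18 in the fit (SE, limma adjusted p = 0.622). The range of the siNCOA3 libraries alone covered both siControl libraries.

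After scaling, the 2 libraries of siSHC1 and of siControl did not overlap for 7 of the 10 genes, higher for TGFB2, SMAD3, SMAD7, LTBP3 and BHLHE40 and lower for TGFBR2 and PMEPA1. With 2 libraries a group this is a weak criterion, met by 48.0% of all tested genes, 24.1% higher and 23.9% lower. For SMAD7 it rests on a near tie of scaled FPKM, 6.36917 (siSHC1, 48 h) against 6.36897 (siControl, 24 h).

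**Figure D2:**
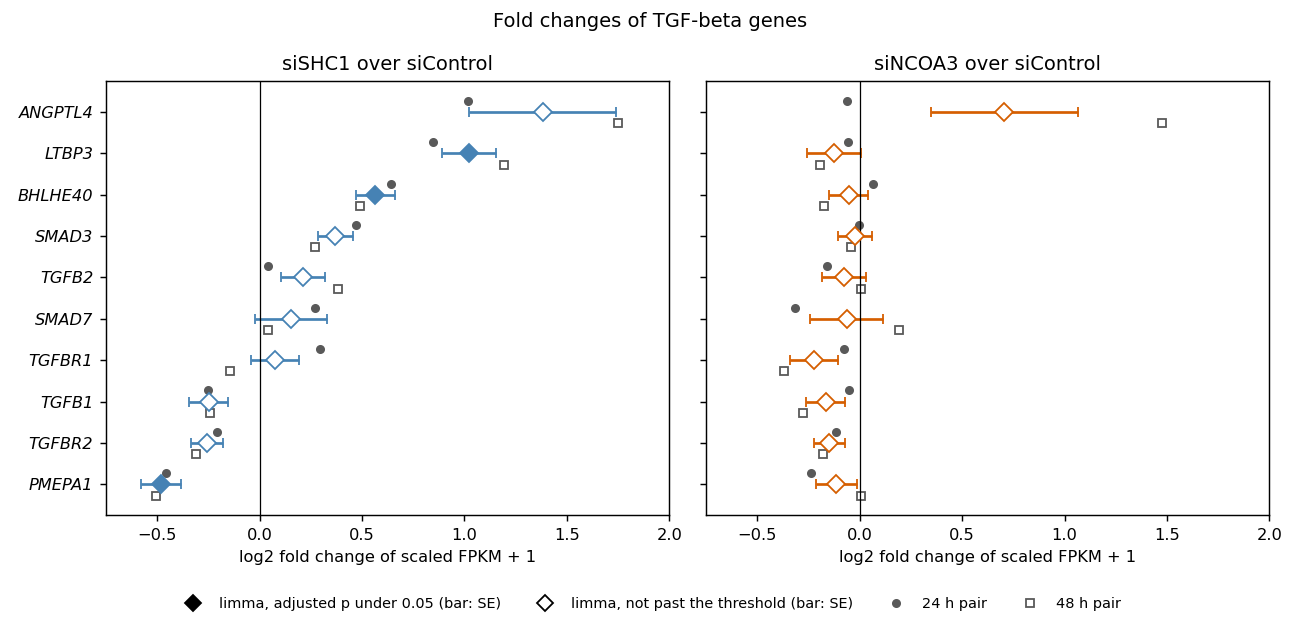
Log2 fold changes of the 10 genes for siSHC1 over siControl and siNCOA3 over siControl; diamonds are the fitted values with bars of 1 SE, filled where the limma adjusted p was under 0.05, and small symbols are the differences between single libraries of 24 h (circles) and 48 h (squares). Filled diamonds occur for LTBP3, BHLHE40 and PMEPA1 after siSHC1, and the 24 h and 48 h differences of ANGPTL4 after siNCOA3 lie far apart.

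After siNCOA3, 0 of the 10 genes changed relative to the same siControl libraries (limma), and 0 had an unadjusted p under 0.05. Over all tested genes 0.111% changed, all of them lower, and 1226 had an unadjusted p under 0.05. Of the 10 values 9 were below 0 and the median was -0.09, against a median of -0.00064 over all tested genes. The lowest were TGFBR1 at -0.22 ± 0.12 (limma adjusted p = 0.580), TGFB1 at -0.17 ± 0.09 (0.615) and TGFBR2 at -0.15 ± 0.08 (0.572), each with its SE. With 1 library left out, TGFBR1 ran from -0.41 (without the siControl library of 24 h) to -0.039 (without that of 48 h). TGFB1 ran from -0.28 to -0.049, without the siNCOA3 library of 24 h and of 48 h. The 2 siNCOA3 libraries lay below both siControl libraries after scaling for these 3 genes and for SMAD3, that is for 4 of 10, and above them for 0 of 10. Over all tested genes 39.3% did not overlap, 20.1% higher and 19.3% lower. The SMAD3 value, -0.02, was above 0 without scaling (0.026) and with upper quartile scaling (0.0033).

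ANGPTL4 was the one value above 0 after siNCOA3, at 0.71 ± 0.36 (SE, limma adjusted p = 0.589), and it came from the 48 h pair. At 24 h the siNCOA3 library was at 95.5% of siControl, and at 48 h at 3.26-fold. The fitted value was 1.29 and 0.12 when the 24 h and the 48 h library of siNCOA3 was left out, and 1.27 and 0.14 when those of siControl were. The siControl library of 48 h held the lowest ANGPTL4 of the 6.

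Between the 2 knockdowns, SMAD3, LTBP3 and BHLHE40 were higher after siSHC1 than after siNCOA3, and none of the 10 passed as lower. The siSHC1 libraries are those of the comparison above, so this is a second reference for the same values rather than a new measurement. The 3 of 10 stand beside 9.74% of all tested genes. LTBP3 was higher by 1.15 ± 0.13 (SE, limma adjusted p = 0.00661), BHLHE40 by 0.62 ± 0.09 (0.0146) and SMAD3 by 0.39 ± 0.08 (0.0358), while PMEPA1 was at -0.37 ± 0.10 (0.0609). At an unadjusted p under 0.05 there were 6 of the 10 and 3442 of all. LTBP3 passed without each of the 6 libraries in turn. For BHLHE40 the adjusted p was 0.0558 when the 48 h library of siSHC1 was left out and 0.0943 when that of siNCOA3 was. For SMAD3 it was 0.115 and 0.137 without the siNCOA3 library of 24 h and 48 h, 0.160 and 0.0720 when the 24 h and the 48 h library of siSHC1 was left out, and 0.0641 without scaling. After scaling 8 of 10 genes did not overlap between these siRNAs, 6 higher and 2 lower after siSHC1, against 58.4% of all tested genes, 29.5% higher and 28.8% lower.

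The times were then compared over the 3 siRNAs. By limma 0 of the 10 genes differed between 48 h and 24 h, against 0.0257% of all tested genes (0.0171% higher and 0.00855% lower), while 5 of the 10 and 1660 of all had an unadjusted p under 0.05. ANGPTL4 was at 14.8, 12.2 and 3.78 FPKM at 48 h (siSHC1, siNCOA3, siControl), against 32.0, 14.8 and 14.3 FPKM at 24 h, lower at 48 h in each siRNA. The 48 h level was 0.470 of the 24 h level after siSHC1, 0.838 after siNCOA3 and 0.245 after siControl, and the fitted difference was -1.02 ± 0.29 (SE, limma adjusted p = 0.300). PMEPA1 was likewise lower at 48 h in all 3 siRNAs, at 0.740, 0.911 and 0.767 of 24 h, with a fitted difference of -0.31 ± 0.08 (limma adjusted p = 0.281). LTBP3 was higher at 48 h in all 3, at 1.62, 1.15 and 1.28 times the 24 h level (0.39, limma adjusted p = 0.282).

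**Figure D3:**
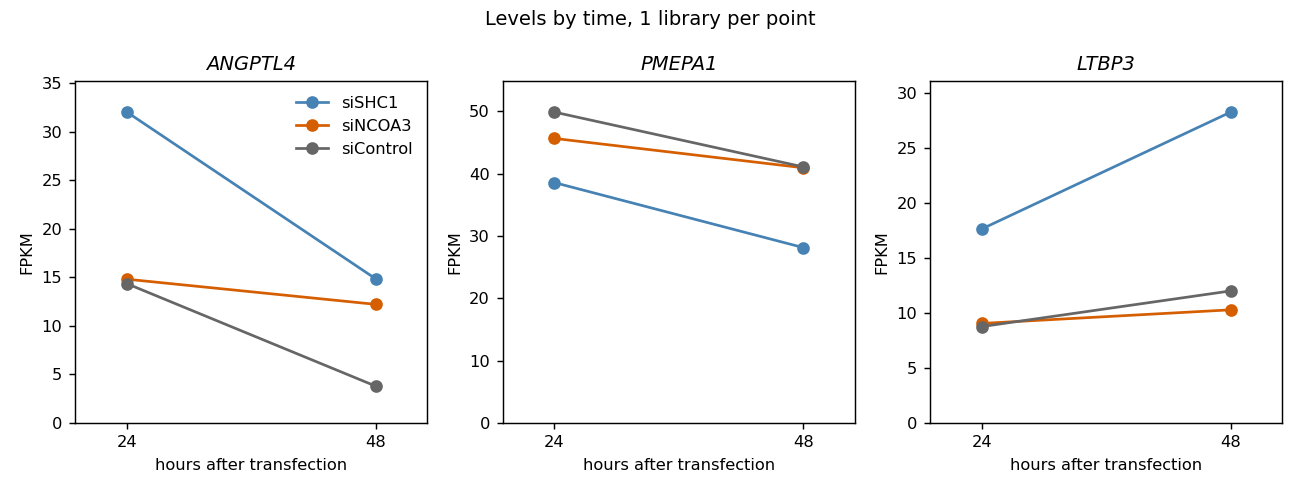
FPKM of ANGPTL4, PMEPA1 and LTBP3 at 24 h and 48 h after transfection (linear axes from 0), with 1 library per point and lines joining the libraries of one siRNA. ANGPTL4 and PMEPA1 are lower and LTBP3 is higher at 48 h in every siRNA, and the siSHC1 line lies apart from the other 2 for PMEPA1 and LTBP3.

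The wider pathway was described with 7 lists of 123 genes, of which 90 were tested. These lists were chosen with earlier results of these data known, so their counts beside all tested genes are no test of them. After siSHC1, 9 of the 90 rose and 3 fell (limma), against 3.11% and 3.32% of all tested genes, and the median of the 90 was 0.04. The changes lay among the genes of latency and activation, among the SMAD regulators, among the induced target genes and in the BMP branch. Of 4 tested ligands and 11 tested receptors and receptor regulators 0 changed. Of these, 1 and 2 had an unadjusted p under 0.05, against 3077 of all 11690 tested genes.

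Among 11 tested genes of latency and activation, LTBP3 and THBS1 rose and MMP14 fell (limma), beside 3.11% higher and 3.32% lower of all tested genes. THBS1, thrombospondin-1, which is known to free TGF-beta from its latent complex, was at 560 and 447 FPKM after siSHC1, 172 and 191 FPKM after siNCOA3, and 272 and 215 FPKM after siControl. Both siSHC1 libraries stood above the other 4, with a rise of 1.01 ± 0.14 (SE, limma adjusted p = 0.0193). MMP14, a membrane protease that can also release the ligand, was at 154 and 139 FPKM after siSHC1, 172 and 181 FPKM after siNCOA3, and 190 and 237 FPKM after siControl, and fell by 0.57 ± 0.09 (limma adjusted p = 0.0231). Genes with known roles in activating the ligand thus moved in opposite directions. FBN1, the fibrillin to which LTBP proteins attach, was at -0.43 (limma adjusted p = 0.0771) against siControl, and lower against siNCOA3 (-0.51, limma adjusted p = 0.0419).

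Of 18 tested SMAD regulators, 2 fell after siSHC1, PMEPA1 and TGIF2, and 0 rose (limma). Over all tested genes 3.32% fell and 3.11% rose, so few calls either way are usual for a list of this size. TGIF2, a homeodomain corepressor of SMAD proteins, was at 9.83 and 8.95 FPKM after siSHC1, 16.7 and 17.8 FPKM after siNCOA3, and 15.0 and 16.8 FPKM after siControl. It fell by 0.73 ± 0.10 (SE, limma adjusted p = 0.0141), and the siSHC1 libraries were well below the other 4. ZEB2, a SMAD-binding repressor of epithelial genes, had a value of 0.50 (limma adjusted p = 0.0679), and NEDD4L, a ubiquitin ligase for activated SMADs, a value of -0.30. SMAD2 and SMAD4, the partners of SMAD3, were at -0.02 and -0.15, and the inhibitory SMAD6 at 0.15. TGFBR3, the co-receptor betaglycan, was at 0.55 (limma adjusted p = 0.0722) and BAMBI, a pseudoreceptor, at 0.34.

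The induced target genes did not all move one way. Of 34 tested, 5 rose after siSHC1 and 1 fell (limma), beside 3.11% higher and 3.32% lower of all tested genes. There were 20 values above 0 and 14 below 0, against 5926 and 5764 over all tested genes. The median was 0.06, against 0.0035 over all tested genes. The genes that rose were BHLHE40, the collagens COL1A1 (1.12 ± 0.12) and COL5A1 (0.74 ± 0.09), the fibronectin receptor subunit ITGA5 (0.88 ± 0.10) and the cell cycle inhibitor CDKN1A (0.47 ± 0.11, limma adjusted p = 0.0490), each with its SE. COL1A1 was at 6.78 and 7.47 FPKM after siSHC1, 3.36 and 4.58 FPKM after siNCOA3, and 2.16 and 3.27 FPKM after siControl (limma adjusted p = 0.00776). The fibroblast marker list that holds COL1A1 summed to 11.3 and 13.7 FPKM after siSHC1, 7.45 and 8.77 FPKM after siNCOA3, and 5.74 and 9.53 FPKM after siControl, with its defining markers DCN at 0 and COL3A1 at most 0.0279 FPKM in any library. ITGA5 was at 93.9 and 127 FPKM after siSHC1, 55.5 and 58.2 FPKM after siNCOA3, and 50.2 and 65.9 FPKM after siControl (limma adjusted p = 0.00856).

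PTHLH, the parathyroid hormone-related peptide that TGF-beta induces in MDA-MB-231 cells, had a value of 0.83 after siSHC1 against siControl (limma adjusted p = 0.0681). Targets that were not called also lay below 0, with SNAI2 at -0.44 (limma adjusted p = 0.0517) and ACTA2 at -0.64 (0.0882). CDKN2B, another well-known target, was listed at 0 in all 6 libraries.

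Against siNCOA3, 12 of the 90 genes were higher after siSHC1 and 6 lower (limma), beside 5.35% and 4.40% of all tested genes. The higher genes were LTBP3, THBS1, SMAD3, BHLHE40, COL1A1, COL5A1 and ITGA5, the SMAD corepressor TGIF1, TGFBI, VEGFA, BMP4 and BMP1. The lower genes were FBN1, TGIF2, COL4A1, COL4A2, ACTA2 and SMAD1. TGFBI, an extracellular matrix protein named for its induction by TGF-beta, was at 67.2 and 61.2 FPKM after siSHC1 and 49.8 and 50.2 FPKM after siNCOA3 (0.37 ± 0.08, limma adjusted p = 0.0419). Between siNCOA3 and siControl 0 of the 90 genes changed (limma), beside 0.111% of all 11690 tested genes. At an unadjusted p under 0.05 there were 17 of the 90 and 1226 of all. The largest values there in the list of induced targets were ANGPTL4 and PTHLH (0.60), TGFBI (-0.43 ± 0.08, limma adjusted p = 0.194) and TAGLN (0.40). Between 48 h and 24 h 0 of the 90 changed (limma), beside 0.0257% of all tested genes. Here 21 of the 90 and 1660 of all had an unadjusted p under 0.05.

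**Figure D4:**
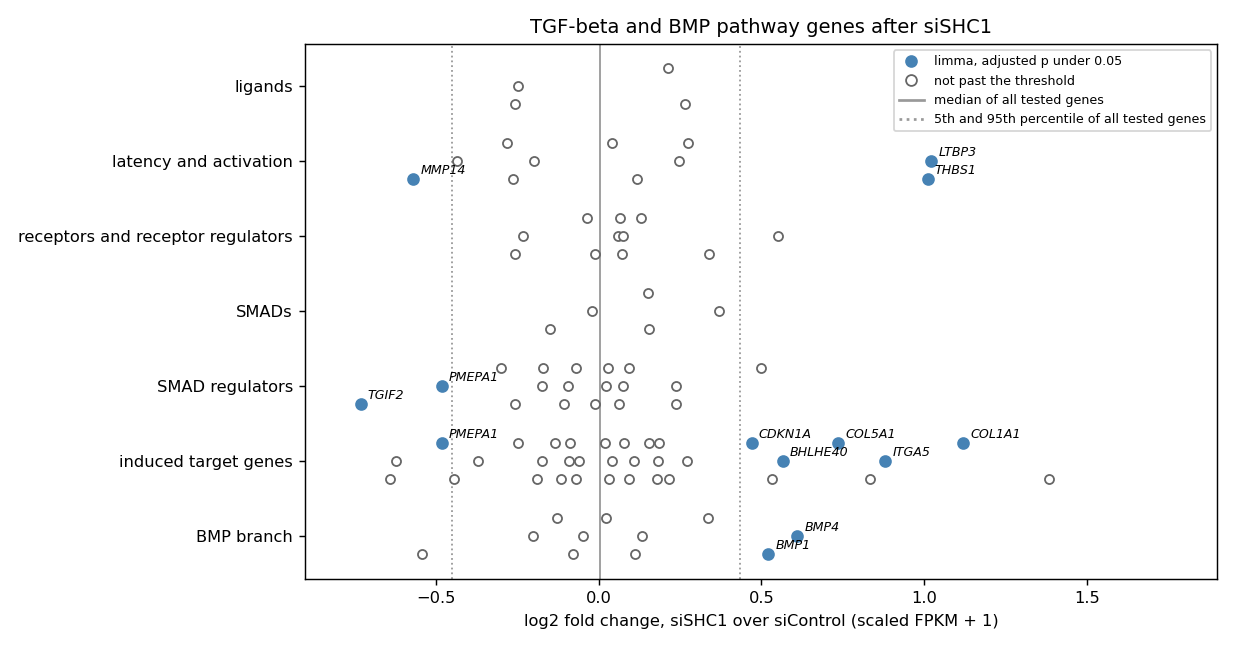
Log2 fold change of siSHC1 over siControl for each tested gene of the 7 pathway lists, 1 circle a gene, filled and named where the limma adjusted p was under 0.05; the solid line is the median and the dotted lines the 5th and 95th percentile (-0.45 and 0.43) of all tested genes. Filled circles lie on both sides of 0, and the ligand, receptor and SMAD lists hold none.

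For 4 of the genes the tested genes with the most similar profile over the 6 libraries were found, out of 8925 genes that averaged 5 FPKM or more, by the root mean square difference of centred log2 values. With 6 libraries many genes can lie close to a given profile. For PMEPA1 these were ZWILCH (0.037), NR1D2 (0.042) and TIPIN (0.067). ZWILCH, a kinetochore checkpoint protein, was at 18.4 and 13.0 FPKM after siSHC1, 21.8 and 20.0 FPKM after siNCOA3, and 23.4 and 18.4 FPKM after siControl, with the same order of siRNAs as PMEPA1 at 24 h. For TGFB2 they were YIF1A (0.030), SLC17A9 (0.032) and CD320 (0.033), and for SMAD7 TRIM39 (0.062), ZNF431 (0.064) and KLF2 (0.066). For ANGPTL4 they were the cytokine IL24 (0.38), CPT1A (0.48) and F3 (0.51). These differences grow with a gene's own spread, and the SD of ANGPTL4 over the libraries was 0.82, against 0.15 to 0.26 for the other 3 genes. IL24 was at 31.5 and 18.0 FPKM after siSHC1, 11.9 and 13.4 FPKM after siNCOA3, and 21.0 and 7.98 FPKM after siControl, so it too was lowest in the siControl library of 48 h. CPT1A controls fatty acid import into mitochondria, and F3 is tissue factor, the starter of blood clotting.

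Of all 7-base words in 3′ UTRs, the one whose carriers fell most clearly after siSHC1 was picked and looked up in the genes above. GCCCATC was in the 3′ UTR of 40.1% of 377 genes that fell, 4.29% of 350 that rose and 6.31% of genes not called (GENCODE transcripts of GRCh38). The word was picked by these same fold changes, so these shares are no test of it, and no siRNA sequence is given in the sources used here. Of the 10 genes only TGFBR1 carries it in the 3′ UTR of the transcript used, and PMEPA1, which fell, does not. Outside the 3′ UTR it also occurs in the transcripts of TGFB1, TGFBR1 and TGFBR2. Of the other pathway genes, TGIF2, which fell, carries it in the 3′ UTR, and COL1A1, which rose, carries it there 2 times. MMP14, which fell, has it only outside the 3′ UTR. Genes that were not called, among them SMAD6 and ZEB2, carry it in the 3′ UTR too. The SHC1 transcript itself holds it 2 times, outside the 3′ UTR. The sites of TGFBR1 and TGIF2 are shown to compare their flanks, with the word in capitals, read 5′ to 3′ along the transcript and with the base at which the word begins.

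TGFBR1, chromosome 9, from base 2587 of the 3′ UTR: ttgtttatactGCCCATCctaggatgctc

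TGIF2, chromosome 20, from base 1942 of the 3′ UTR: acttctgagtcGCCCATCtgttgctgtgg

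The levels of these transcripts differed after siSHC1. TGIF2 fell, while TGFBR1 was at 1.24-fold of siControl at 24 h and at 90.1% at 48 h. The word picked in the same way from the siNCOA3 fold changes, GTCAAGA, was found in 0 of the 10 3′ UTRs, against 7.66% of all those searched. Elsewhere in the transcript it occurs in TGFBR2, SMAD3, SMAD7 and BHLHE40, and the NCOA3 transcript itself holds it 2 times outside the 3′ UTR.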

How the data were processed

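The values the authors deposited are FPKM per gene symbol, although the table is named for read counts; they are not whole numbers, so limma replaced the count test planned for counts. Build hg19 and the tools DESeq2, STAR and Cufflinks are named, without roles or versions, per the submitters' processing notes. Per the labels' protocols, a stranded mRNA kit was used; neither annotation nor strand setting is given in the sources used here, so a gene and an antisense partner cannot be told apart. Fragment depth per gene is unknown, and no counting interval is given. The 6 sample columns were all used, and 0 others were present. FPKM were scaled by the median of ratios over 11042 genes with at least 1 FPKM in all libraries, and log2(scaled FPKM + 1) of 11690 genes was fitted with limma 3.58.1 in R 4.3.3 (trend and robust moderation, additive siRNA and time, 2 residual degrees of freedom, Benjamini-Hochberg). The procedure was run on simulated libraries with independent noise and known changes that, for an siRNA, were equal at both times. An siRNA effect that differs between the times was thus not simulated. Promoter windows are from RefSeq (GRCh38.p14) and 3′ UTRs from GENCODE transcripts of GRCh38, matched by symbol to 97.7% of tested genes; coordinates of the authors' build were not used. Plots and sequence searches used Python 3.11.15. The members and lists were chosen with earlier results of these data known. Named are the 10 members, every called gene of the lists, up to 4 genes per list with the largest fold change, and 3 nearest profiles for 4 members. SNAI2 is named in addition. The values of 1 further gene of the lists are not reported here. Alternatives were other scalings, filters, pseudocounts and models, and each library left out in turn.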

Additional observations from a re-analysis of the deposited data

Results flagged for a closer look

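For 6 values the sign of the difference from siControl was opposite at 48 h and at 24 h. With 1 library for each siRNA and time, these differences between the times were not tested. After siNCOA3, ANGPTL4 was at 1.47 at 48 h and -0.06 at 24 h on the log2 scale. SMAD7 was at 0.19 at 48 h and -0.32 at 24 h, and BHLHE40 at -0.17 and 0.07. TGFB2 (0.0085 at 48 h and -0.16 at 24 h) and PMEPA1 (0.0075 and -0.24) had a value near 0 at 48 h. After siSHC1, TGFBR1 was at -0.14 at 48 h and 0.29 at 24 h. Opposite signs were common among all tested genes, at 43.6% for siNCOA3 (5 of the 10 genes) and 30.4% for siSHC1 (1 of the 10).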

How the results depend on the processing

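Between siSHC1 and siControl, 3 of the 10 genes changed, and the count was 0 without a filter on low values, 0 without the term for time, 1 without trend and robust moderation, and 0 to 4 with 1 library left out. Between siSHC1 and siNCOA3 it was 3, with 0 without a filter, 1 without the term for time, and 1 to 3 with 1 library left out. Over 16 alternatives for siSHC1 against siControl, LTBP3 passed in 12, BHLHE40 in 9 and PMEPA1 in 9, with adjusted p of 0.0033 to 0.118, 0.018 to 0.148 and 0.028 to 0.198 (limma), and none of these 3 changed direction. The siNCOA3 and time comparisons called 0 of the 10 in each. Over all genes the counts ran from 2 to 867 for siSHC1 against siControl (751 in the reported fit), 4 to 1216 for siSHC1 against siNCOA3 (1139), 0 to 38 for siNCOA3 (13) and 0 to 64 for time (3). The cause was not tested.

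Directions turned for values near 0. With 1 library left out, siNCOA3 values ran from -0.087 to 0.039 for SMAD3, -0.20 to 0.050 for TGFB2, -0.37 to 0.25 for SMAD7, -0.25 to 0.017 for PMEPA1, -0.15 to 0.045 for BHLHE40 and -0.28 to 0.029 for LTBP3. For siSHC1 against siControl they ran from -0.11 to 0.26 for TGFBR1 and -0.087 to 0.39 for SMAD7, and against siNCOA3 from -0.20 to 0.035 for TGFB1 and -0.092 to 0.53 for SMAD7. For 48 h against 24 h they ran from -0.043 to 0.011 for TGFBR2, -0.095 to 0.0093 for SMAD3 and -0.15 to 0.21 for SMAD7. Without scaling and with upper quartile scaling SMAD3 after siNCOA3 was at 0.026 and 0.0033, and TGFBR2 at 48 h against 24 h at 0.0066 and 0.011. Without both siSHC1 libraries the time values were 0.0092 for TGFBR2 and 0.0076 for SMAD3. Where a library was left out, the lone library of that siRNA is assumed to vary like the others. The labels give no replicate numbers, and the reported fit pairs the libraries of a time through its term for time, which the fits without that term leave out.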

Other observations

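The BMP branch of the same ligand family was also measured, and 2 of its 11 tested genes rose after siSHC1 and 0 fell (limma, against 3.11% and 3.32% of all tested genes). BMP4, a secreted ligand of SMAD1 and SMAD5 signalling, was at 186 and 247 FPKM after siSHC1 at 24 h and 48 h, 147 and 163 FPKM after siNCOA3, and 108 and 173 FPKM after siControl. Its siSHC1 libraries were the highest of the 6, with a rise of 0.61 ± 0.10 (SE, limma adjusted p = 0.0239). BMP1, a protease of procollagens rather than a ligand, was at 21.6 and 26.9 FPKM after siSHC1, 16.2 and 15.9 FPKM after siNCOA3, and 14.2 and 18.3 FPKM after siControl (0.52 ± 0.11, limma adjusted p = 0.0416). SMAD1, which carries BMP signals, was low at 0.864 and 0.630 FPKM after siSHC1, 1.88 and 1.55 FPKM after siNCOA3, and 1.38 and 1.63 FPKM after siControl (-0.54 against siControl, limma adjusted p = 0.0803). The BMP target ID3 had a value of 0.34 and ID1 a value of 0.13, and neither passed.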
